A study of Mus musculus with 6 samples.

Results

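The genes described here encode the proteasome and several families of enzymes and adaptors that attach or remove ubiquitin, in mouse CD4+ cells with and without a floxed allele of Ncoa2, which encodes the coactivator SRC2. They were taken by gene symbol alone from the deposited table, as symbols that begin with Psma to Psmg, Usp, Ube2, Trim, Rnf, Cul or Herc and a digit (for Ube2, any next letter), or with Fbx, which gave 52 of the 2387 genes listed. The 8 families comprised 13 Psm genes, 11 Fbx, 11 Rnf, 5 Trim, 4 Ube2, 4 Usp, 3 Cul and 1 Herc gene, and 386 protein-coding genes of the GENCODE M21 annotation carry such a symbol. The other genes with such symbols were not analysed here, so nothing can be said of their direction. A symbol is not a function, and Usp6nl, which is named for its likeness to part of USP6, is known as a GTPase-activating protein for Rab proteins and not as a deubiquitinase.

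RNA-seq was performed on naive CD4+ T cells of the spleen that had been activated through CD3 and CD28 under Treg-polarizing conditions (TGFβ, 5 ng/ml, with antibodies to IL-4 and IFNγ) for 36 hours. The genotypes were Foxp3YFP-Cre, here called control, with 3 libraries, and SRC2fl/fl/Foxp3YFP-Cre, here called SRC2-floxed, with 3 libraries, each library from a different mouse of 6 to 10 weeks on the C57BL/6j background. Both genotypes carry the Foxp3-driven Cre, so the floxed gene can only be lost in cells that have switched on Foxp3, and other cells in the same culture keep it. No sort of the Tregs after culture is described. The comparison asks which transcripts differ when SRC2 is deleted as Tregs form.

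The deposited values are the authors' mean counts per 1000000 (CPM) of the 3 libraries of each genotype, so no value per library, no SD and no depth can be given, and no test between libraries was run. Every gene listed had a P value below 0.05 in the authors' comparison, and the smallest difference among the 2387 genes was 0.175 on the log2 scale. A member was therefore listed only because its means differed, and the counts below describe the direction and size of differences already selected. The log2 ratio was computed as the mean of SRC2-floxed over that of control, and its median over all genes listed was 0.33. With ratios centred on that median, every value below 0.33 turns negative, and the scaling that would bring all expressed genes to 0 is not known from a table of selected genes. Ncoa2 itself had 164 CPM in control and 127 CPM in SRC2-floxed cells, and Foxp3 had 82.5 and 42.4 CPM. In such bulk RNA, fewer cells of a type and less RNA per cell cannot be told apart. None of 14 T cell markers, such as Cd3e and Cd4, was among the genes listed. Other genes of T cells were, and they went both ways. Cd28, a costimulatory receptor, had 256 and 179.6 CPM, and Lef1, a transcription factor, had 359.5 and 292 CPM. Ubash3a, with 63.6 and 95.8 CPM, and Ptpn7, with 156 and 226 CPM, were higher in SRC2-floxed cells. All of these were chosen after their values were seen. Of 12 dendritic cell markers 7 were listed, all higher in SRC2-floxed cells, with a summed level of 73.5 CPM in control and 159.7 CPM in SRC2-floxed cells. Of 11 mast cell markers 3 were listed, all higher, with sums of 1.85 and 22.1 CPM. Of 12 myeloid markers only Lyz2 was listed, with 0.310 and 45.4 CPM, and none of 10 B cell or 8 CD8 and NK cell markers was. The part of these cell types in the values of the members was not tested.

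Ubiquitin is a small protein that cells attach to other proteins. An activating enzyme (E1) loads it, a conjugating enzyme (E2, the Ube2 family) carries it, and a ligase (E3) selects the substrate. RING ligases include many Rnf and Trim proteins, and in cullin-RING ligases a cullin scaffold holds a substrate adaptor such as an F-box protein. Deubiquitinases, of which the Usp proteins are the largest family, take ubiquitin off again. The proteasome is the barrel-shaped protease that degrades many of the tagged proteins. In T cells this system sets the life span of signaling proteins and of Foxp3, whose product is known to be both ubiquitinated and deubiquitinated. In Tregs differentiated in vitro, the paper found that Foxp3 protein was degraded at an equivalent rate in both genotypes.

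Most members, and every proteasome gene listed, were higher in SRC2-floxed CD4+ cells, although centring on the median of the table left 22 members higher and 30 lower, beside 50% of all genes that are then higher. Of the 52 members, 39 had a higher mean and 13 a lower one, which is 75% higher, beside 69.2% of all genes listed that were higher and 30.8% that were lower. The median log2 ratio of the members was 0.31. With the fold of 1.4 that the study used for its plot of this comparison, 10 members were at least 1.4 times higher and 3 at least 1.4 times lower. These are 19.2% and 5.77% of the members, beside 26.3% and 14.1% of all genes listed. The shares past the fold were below those of the table, the share of higher genes was near it, and differences between families are described below without a test.

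**Figure D1:**
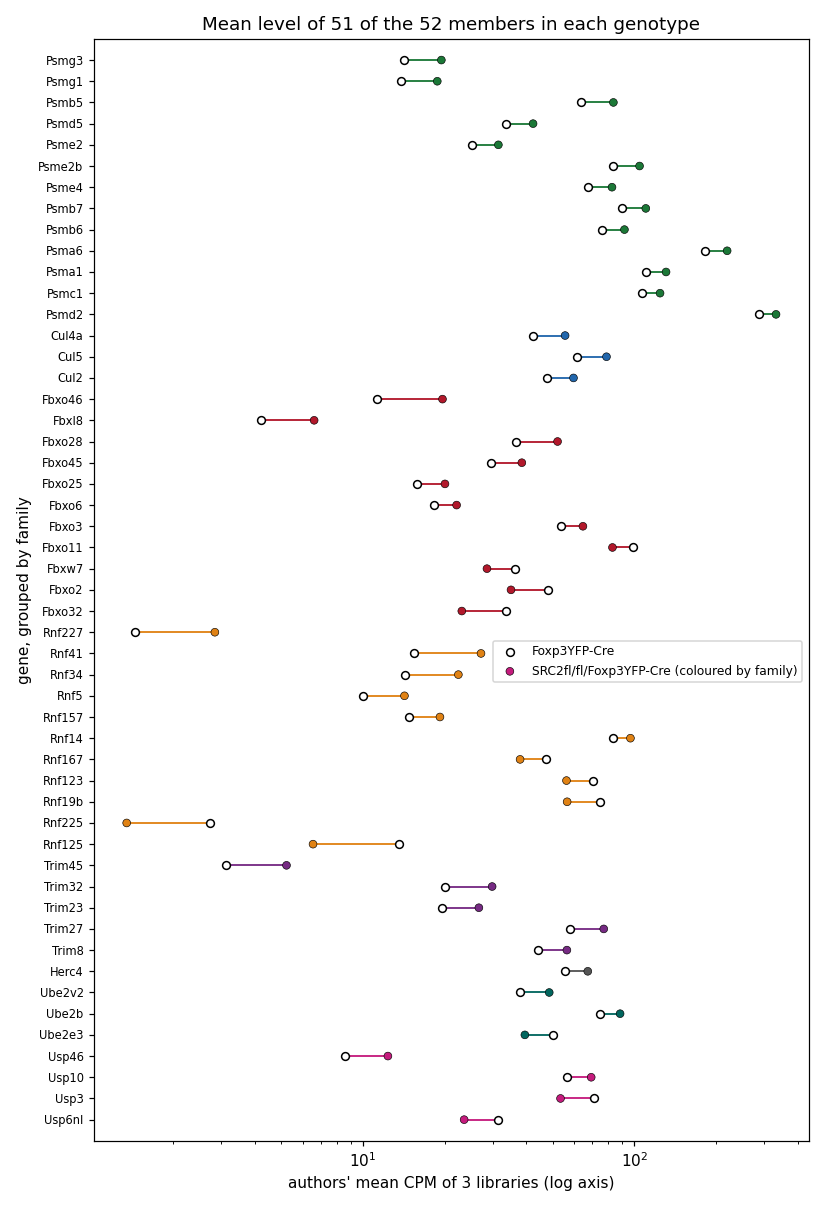
Mean CPM of 51 of the 52 members (log axis), open circles for Foxp3YFP-Cre and filled circles for SRC2fl/fl/Foxp3YFP-Cre, each the authors' mean of 3 libraries with no error available, joined by a line coloured by family. All 13 Psm, 3 Cul and 5 Trim genes have the filled circle on the right, although 10 of the Psm genes and Cul2 are below the median of the table, whereas the Fbx, Rnf, Ube2 and Usp genes go both ways.

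All 13 proteasome genes listed were higher in SRC2-floxed cells, by similar and small amounts, but 10 of them were lower once centred on the median of all genes listed. Their log2 ratios lay between 0.21 and 0.46 with a median of 0.30, and 0 of the 13 reached 1.4 times in either direction. Their summed level was 1155 CPM in control and 1391 CPM in SRC2-floxed cells. The SD of the log2 ratio over these 13 genes was 0.080, against 0.68 over all genes listed, which go both ways and include all levels. In the other families whose genes were all higher, the SD was 0.034 over 3 Cul genes and 0.15 over 5 Trim genes. Psmb5, Psmg1 and Psmg3 were the 3 that lay above the median of the table.

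The level of a gene bounds the differences the table can hold, since a gene with few reads needs a larger difference to be listed. Among genes with a mean of at least 75 CPM over both genotypes, 60.4% of 510 were higher, with a median log2 ratio of 0.23, and 7 of 7 proteasome genes at that level were higher before centring, with a median of 0.27. Between 25 and 75 CPM, 73.2% of 862 genes and 4 of 4 proteasome genes were higher, and below 25 CPM 70.2% of 1015 genes and 2 of 2 proteasome genes were. The median size of the log2 ratio, regardless of direction, was 0.32 over all genes listed at 75 CPM or more, and 0.27 over the proteasome genes at that level.

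The core particle of the proteasome is a stack of rings of α and β subunits, and its cutting sites lie on β subunits. The genes of the catalytic β subunits of the standard proteasome, Psmb5, Psmb6 and Psmb7, were all listed, among 5 of 14 core subunit genes. Psmb5, the chymotrypsin-like subunit, had 63.5 CPM in control and 83.6 CPM in SRC2-floxed cells, a log2 ratio of 0.40. Psmb6, the caspase-like subunit, had 76.1 and 91.9 CPM, a log2 ratio of 0.27. Psmb7, the trypsin-like subunit, had 90.2 and 110.1 CPM, a log2 ratio of 0.29, and its exons overlap those of Nek6 on the opposite strand. All 3 catalytic genes were higher, and Psmb5 had the largest ratio among the 5 core subunit genes listed. Psma1 and Psma6, which encode α subunits of the outer rings, had log2 ratios of 0.24 and 0.27, with Psma6 at 182 CPM in control and 219 CPM in SRC2-floxed cells. The genes of the interferon-induced subunits that replace the standard catalytic ones, Psmb8, Psmb9 and Psmb10, were not among the genes listed, so nothing can be said of their direction.

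The regulatory particle caps the core, unfolds substrates and feeds them in. Of 17 of its subunit genes, 2 were listed, with the smallest ratios of the proteasome genes. Psmd2, a large scaffold subunit of the base, had 288 CPM in control and 332 CPM in SRC2-floxed cells, a log2 ratio of 0.21. Psmc1, an ATPase subunit, had 107 and 124 CPM, a log2 ratio of 0.22.

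Of the proteasome genes, Psmg1 and Psmg3 had the largest ratios, and 4 of 10 genes of assembly factors and other proteasome proteins were listed. Psmg3 and Psmg1, chaperones that help build the α ring, had log2 ratios of 0.46 and 0.45. Psmg3 had 14.2 CPM in control and 19.4 CPM in SRC2-floxed cells, and Psmg1 had 13.8 and 18.8 CPM. Both lay below 25 CPM, where the median log2 ratio of all genes listed was 0.46. Exons of Psmg3 overlap those of Gm26938 on the same strand. Psmd5, a chaperone of the regulatory particle, had 33.7 and 42.3 CPM, a log2 ratio of 0.33. Psmg1, Psmg3 and Psmd5 were also low per length of transcript. Divided by the length of all annotated exons in kb, the levels in control cells were 13.2 CPM per kb for Psmg1, 16.0 for Psmg3 and 7.67 for Psmd5, whereas the 5 core subunit genes lay between 70.6 CPM per kb for Psmb5 and 159 for Psma6. The authors' annotation is not given in the sources used here, so these lengths may differ from theirs.

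Proteasome activators bind the open ends of the core. Psme4, the large activator PA200 known from chromatin and the testis, had 67.2 CPM in control and 82.6 CPM in SRC2-floxed cells, a log2 ratio of 0.30. Psme2, a subunit of the interferon-induced activator PA28, had 25.2 and 31.5 CPM, and Psme2b had 83.6 and 104 CPM. Both had a log2 ratio of 0.32. Psme2b is annotated as a retrogene, a copy made from processed RNA, and near-identical copies can share reads, so the values of both genes are uncertain. Without Psme2b the median of the other 12 proteasome genes was 0.29.

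Psme2 was the only listed gene of 25 interferon-induced members of these families. Among 35 other interferon-induced genes, 5 were listed, 4 higher and 1 lower, beside 69.2% of all genes listed that were higher. Ifih1, a sensor of viral RNA, had a log2 ratio of 0.51, and Gbp5, a guanylate-binding protein, had one of -0.67.

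**Figure D2:**
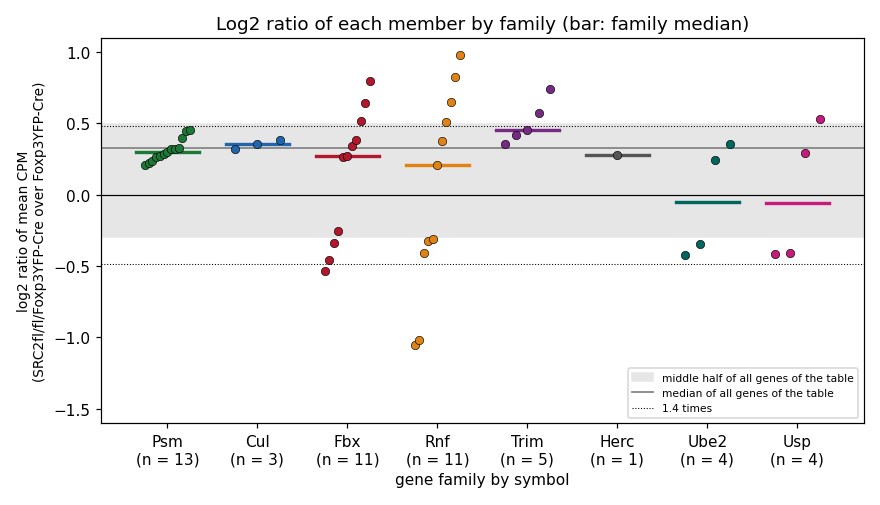
Log2 ratio of mean CPM (SRC2fl/fl/Foxp3YFP-Cre over Foxp3YFP-Cre) for each member, with the family median as a bar, the median and interquartile range of all 2387 genes in grey and dotted lines at 1.4 times. The 13 Psm genes form a narrow group between 0.21 and 0.46, and the Rnf genes spread from -1.05 to 0.98.

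Proteasome genes share a known regulator, the transcription factor Nrf1 encoded by Nfe2l1, which binds antioxidant response elements in their promoters once the protease DDI2 has cut it free from its membrane-bound form. Of 20 partners and regulators of the proteasome in a list, these 2 genes were listed. Nfe2l1 had 126 CPM in control and 162 CPM in SRC2-floxed cells, a log2 ratio of 0.37. Ddi2 had 84.4 and 103 CPM, a log2 ratio of 0.29. Both were higher, as were 69.2% of all genes listed, and Ddi2 lay below the median of the table. A part of Nfe2l1 or Ddi2 in the values of the proteasome genes was not tested.

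The core of the antioxidant response element, TGACNNNGC on either strand, was looked for in the RefSeq promoters of the GRCm38.p6 build, which run from 250 bases before to 50 bases after a start site. It was present in 12.4% of all 32851 promoters. By gene, it was present in 14.0% of all 27025 genes with a promoter, in 16.7% of 1822 genes of the table and in 6 of 37 members that had one, among them Cul5, Fbxo11 and Usp10. Of the 12 proteasome genes with a promoter, 3 held it, as did 3 of 29 proteasome genes outside the table. These counts are small, and a match is no evidence of binding.

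The matches of Psmb5, Psmb6 and Psme4 are shown because they are the proteasome members that hold the element, from 120 bases before the start site to 20 after it and 5′ to 3′ on the strand of the gene, with the match in capitals. Psmb5 is at chr14:54617976-54618115 on the minus strand, Psmb6 at chr11:70525237-70525376 on the plus strand and Psme4 at chr11:30771655-30771794 on the plus strand.
Psmb5: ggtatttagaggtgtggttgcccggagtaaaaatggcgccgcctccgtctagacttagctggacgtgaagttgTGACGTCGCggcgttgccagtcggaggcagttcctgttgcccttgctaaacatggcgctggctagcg
Psmb6: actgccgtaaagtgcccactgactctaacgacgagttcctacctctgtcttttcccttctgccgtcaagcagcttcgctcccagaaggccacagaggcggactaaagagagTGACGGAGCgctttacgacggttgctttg
Psme4: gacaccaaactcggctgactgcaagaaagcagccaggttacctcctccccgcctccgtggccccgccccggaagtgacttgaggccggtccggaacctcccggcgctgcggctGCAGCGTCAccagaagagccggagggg
The match began 47 bases before the RefSeq start site in Psmb5 and 9 before it in Psmb6. In Psme4 it began 7 bases before the RefSeq start and lay on the other strand, where it reads TGACGCTGC. GENCODE M21 places the start of Psme4 at 30771726, before the match, so by that annotation the match lies inside the gene. All 3 matches open with TGACG, letters that are also the core of a CREB site, and TGACG was present on either strand in 20.8% of all promoters. None of the 3 promoters held the AP-1 site TGANTCA with a C or G at the open position.

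All 3 cullins listed were higher in SRC2-floxed cells, with log2 ratios between 0.32 and 0.39, of which 2 stayed higher and 1 was lower with centring. Cul4a, the scaffold of ligases with the adaptor DDB1, had 42.5 CPM in control and 55.5 CPM in SRC2-floxed cells, a log2 ratio of 0.39. Cul5, the scaffold for SOCS-box adaptors, which restrain cytokine signaling, had 61.6 and 78.9 CPM, a log2 ratio of 0.36. Cul2, the scaffold of the VHL ligase, had 47.8 and 59.6 CPM, a log2 ratio of 0.32. Cul2 was the cullin just below the median of all genes listed.

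Of 48 cullin partners in a list, 10 were listed, 9 higher and 1 lower, beside 69.2% of all genes listed that were higher. Their median log2 ratio of 0.33 equalled that of the table to 2 decimals, and Ddb2, Dcaf1, Keap1, Cops6 and Eloc lay below it. Cops7a, a subunit of the COP9 signalosome that removes NEDD8 from cullins, had 35.0 CPM in control and 51.2 CPM in SRC2-floxed cells, a log2 ratio of 0.55. Vhl, the substrate receptor of Cul2 ligases for hypoxia-inducible factors, had 20.4 and 27.8 CPM, a log2 ratio of 0.44. Dcaf1, a receptor of Cul4 ligases, had a log2 ratio of 0.27. Ddb2, a receptor of Cul4 ligases for damaged DNA, was the lower partner, with 22.0 and 17.1 CPM, a log2 ratio of -0.36.

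The F-box genes went both ways, 7 higher and 4 lower, with log2 ratios from -0.54 to 0.80, and 5 higher and 6 lower with centring. The lower ones included genes known from T cells and muscle. Fbxo32, the atrophy-related ligase adaptor atrogin-1, had 33.5 CPM in control and 23.1 CPM in SRC2-floxed cells, a log2 ratio of -0.54, and lies on the minus strand at chr15:58175879-58214932 of GRCm38. Fbxw7, which marks MYC, cyclin E and Notch for degradation, had 36.2 and 28.6 CPM, a log2 ratio of -0.34. Fbxo11, an adaptor for BCL6, had 98.7 and 83 CPM, a log2 ratio of -0.25.

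Fbxo2 and Fbxo6, paralogs that recognize sugar chains on misfolded glycoproteins, lie close together on chromosome 4 of GRCm38 and differed in opposite directions. The distance between their lower coordinates was 0.0149 Mb, which includes the length of Fbxo6. Fbxo2 had 48.2 CPM in control and 35.1 CPM in SRC2-floxed cells, a log2 ratio of -0.46, whereas Fbxo6 had 18.3 and 22.1 CPM, a log2 ratio of 0.28. Fbxo6 and its neighbour were the closest pair of members in the genome, and no test of the difference between their ratios was possible.

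The higher F-box genes were led by Fbxo46, with 11.3 CPM in control and 19.6 CPM in SRC2-floxed cells, a log2 ratio of 0.80. Fbxo46 exons overlap those of Qpctl on the opposite strand. Fbxl8 had 4.23 and 6.61 CPM, a log2 ratio of 0.64, which was 0.33 with 5 CPM added to both means. Fbxo28 had 36.5 and 52.1 CPM, a log2 ratio of 0.51, and Fbxo45, known from the nervous system as a partner of the ligase MYCBP2, had 29.5 and 38.5 CPM, a log2 ratio of 0.38. The remaining higher genes, Fbxo25, Fbxo6 and Fbxo3, had log2 ratios from 0.26 to 0.34.

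The Rnf genes held the largest differences of the members in both directions, with 6 higher and 5 lower, or 5 and 6 with centring. Rnf125, also named TRAC-1 for its part in T cell activation, and known for marking the RNA sensor RIG-I, had 13.6 CPM in control and 6.55 CPM in SRC2-floxed cells. Its log2 ratio of -1.05 was the lowest of the 52 members and held rank 64 from the lowest among the 2387 genes. Rnf225 had a similar ratio, -1.01, but at 2.72 and 1.35 CPM, and with 5 CPM added to both means its ratio was -0.28 while that of Rnf125 was -0.69. Rnf125 lies on the plus strand at chr18:20944625-20983862 of GRCm38.

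The other lower Rnf genes differed less. Rnf19b, a ligase known as NKLAM from the cytotoxic granules of natural killer cells, had 74.9 CPM in control and 56.5 CPM in SRC2-floxed cells, a log2 ratio of -0.41. Rnf123, the ligase subunit KPC1 that marks the cell cycle inhibitor encoded by Cdkn1b, had 70.2 and 56.2 CPM, a log2 ratio of -0.32, and its exons overlap those of Gmppb on the opposite strand. Rnf123 acts on that inhibitor as a protein, which was not measured here. The RNA of Cdkn1b had 98.6 and 65.6 CPM, a log2 ratio of -0.59. Rnf167, a ligase of endosomal and lysosomal membranes, had a log2 ratio of -0.31.

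Rnf41 led the higher Rnf genes among those with at least 5 CPM. This ligase, also named Nrdp1, is known for marking growth factor receptors and as a regulator of receptor recycling, and it had 15.4 CPM in control and 27.2 CPM in SRC2-floxed cells, a log2 ratio of 0.82. Rnf41 lies on the plus strand at chr10:128411657-128441441 of GRCm38. Rnf34, a ligase known for marking caspases, had 14.3 and 22.5 CPM, a log2 ratio of 0.65, and its exons overlap those of Kdm2b on the opposite strand. Rnf5, a ligase of the endoplasmic reticulum membrane, had 9.98 and 14.2 CPM, a log2 ratio of 0.51. Rnf227 had the highest log2 ratio of all members, 0.98, at only 1.45 and 2.85 CPM, and with 5 CPM added it was 0.28, below that of Rnf41 at 0.66. Rnf157 and Rnf14 had log2 ratios of 0.38 and 0.21.

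All 5 Trim genes were higher in SRC2-floxed cells, with log2 ratios from 0.36 to 0.74 and a median of 0.45, the highest family median, and they were also higher with centring. Trim27, a ligase known for promoting actin assembly on endosomes and for its interaction with transcriptional repressors, had 57.7 CPM in control and 77.1 CPM in SRC2-floxed cells, a log2 ratio of 0.42. Trim32, which is mutated in a form of limb-girdle muscular dystrophy, had 20.1 and 29.9 CPM, a log2 ratio of 0.57. Trim23, which carries an ARF-type GTPase domain besides its RING, had 19.5 and 26.7 CPM, a log2 ratio of 0.45. Trim8, a regulator of cytokine and NF-κB signaling, had 43.9 and 56.4 CPM, a log2 ratio of 0.36. Trim45 was low, with 3.13 and 5.23 CPM, and its log2 ratio of 0.74 was 0.33 with 5 CPM added. Trim was the only family of these 8 whose genes all lay above the median of all genes listed. That median differs with level. Trim45, Trim23 and Trim32 had a mean below 25 CPM over both genotypes, where the median log2 ratio of all genes listed was 0.46. Trim8 and Trim27 lay between 25 and 75 CPM, where it was 0.31.

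Herc4, the single HECT-type member, had 55.5 CPM in control and 67.3 CPM in SRC2-floxed cells, a log2 ratio of 0.28, which was below the median of the table.

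Of the 4 conjugating enzymes, 2 were lower and 2 higher, or 3 and 1 with centring. Ube2e3 had 50.1 CPM in control and 39.5 CPM in SRC2-floxed cells, a log2 ratio of -0.35. Ube2b, a RAD6 homolog that acts on histone H2B, had 74.6 and 88.5 CPM, a log2 ratio of 0.25, and Ube2v2, an inactive variant that helps the enzyme UBE2N build chains used in signaling and DNA repair, had 37.9 and 48.5 CPM, a log2 ratio of 0.36.

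The Usp genes were likewise split, 2 higher and 2 lower, or 1 and 3 with centring. Usp3, a deubiquitinase of histone H2A, had 70.8 CPM in control and 53.4 CPM in SRC2-floxed cells, a log2 ratio of -0.41. Usp6nl, the Rab regulator, had 31.4 and 23.6 CPM, a log2 ratio of -0.42. Usp10, a deubiquitinase of p53, had 56.5 and 69.3 CPM, a log2 ratio of 0.29. Usp46, which is activated by WD-repeat partners, had 8.56 and 12.4 CPM, a log2 ratio of 0.53, and it overlaps an antisense transcript.

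**Figure D3:**
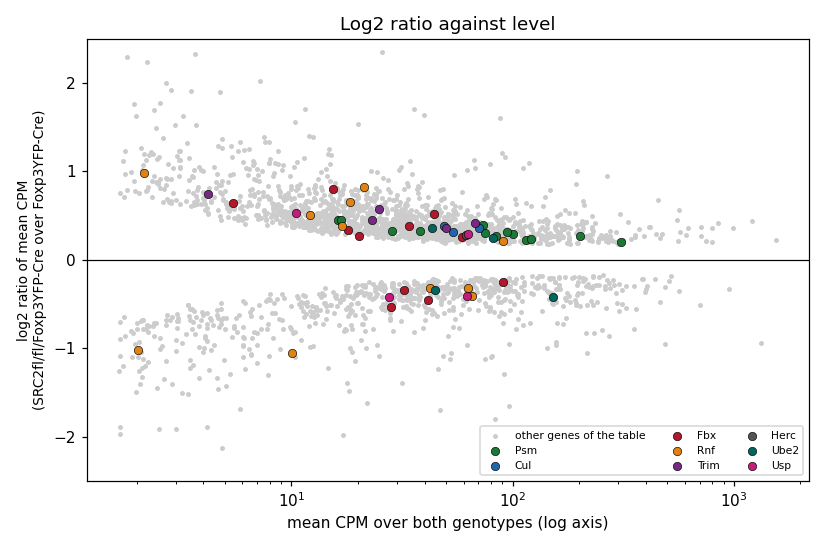
Log2 ratio of mean CPM (SRC2fl/fl/Foxp3YFP-Cre over Foxp3YFP-Cre) against the mean CPM over both genotypes (log axis), for the members by family and for the other genes of the table in grey, without genes beyond 2.5 on the log2 scale. No gene lies near 0 and the empty band widens at low levels, where the members with the largest ratios, Rnf227, Rnf225 and Rnf125, are found.

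Large ratios among the members went with low levels, as in the table as a whole. Of 17 members with a mean below 25 CPM, 11 were at least 1.4 times higher or lower, beside 68.5% of 1015 genes listed at that level. Of 24 members between 25 and 75 CPM, 2 were, Fbxo28 and Fbxo32, beside 20.2% of 862 genes. Of 11 members at 75 CPM or more, 0 were, beside 18.4% of 510 genes.

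A list of 35 members linked to T cell activation or tolerance had 7 genes listed, 4 higher and 3 lower, beside 69.2% of all genes listed that were higher. The lower ones, Rnf125, Fbxo32 and Fbxw7, had log2 ratios of -1.05, -0.54 and -0.34. The higher ones, Trim27, Cul5, Usp10 and Herc4, had log2 ratios of 0.42, 0.36, 0.29 and 0.28. Rnf125 and Fbxo32 were at least 1.4 times lower, and no gene of the list was that much higher, beside 14.1% and 26.3% of all genes listed. Rnf125 had a mean below 25 CPM, where 68.5% of all genes listed were past the fold. The list was drawn up with earlier results of these data known.

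Among genes of the same pathway outside the 8 families, some groups were all higher before centring and others went both ways. Of all genes listed, 69.2% were higher. Of 20 genes of ubiquitin, ubiquitin-like proteins and activating enzymes, 4 were listed. Uba6, an activating enzyme for ubiquitin, had 24.0 CPM in control and 35.2 CPM in SRC2-floxed cells, a log2 ratio of 0.55. Uba3, a subunit of the activating enzyme for NEDD8, had a log2 ratio of 0.43, and Rps27a, which encodes ubiquitin fused to a ribosomal protein, had one of 0.25. Atg7, the activating enzyme of autophagy, was lower, with 28.8 and 23.6 CPM, a log2 ratio of -0.29. Of 16 genes of the anaphase-promoting complex and its activators, 4 were listed and all were higher before centring, Cdc16, Anapc4, Cdc23 and Cdc26, with log2 ratios from 0.25 to 0.36, Cdc26 below the median of the table. Cell cycle proteins are a frequent target of this system. Of 21 members linked to the cell cycle, Fbxw7 and Cul4a were the 2 listed, 1 lower and 1 higher. Of 28 cell cycle genes outside the families 5 were listed, 3 higher and 2 lower, with 146 and 187 CPM for the cyclin gene Ccnd3, a log2 ratio of 0.36.

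Other ligases and deubiquitinases went both ways, beside 69.2% of all genes listed that were higher. Of 71 genes of other ligases and their adaptors, 17 were listed, 9 higher and 8 lower. Ube3a, the HECT ligase of Angelman syndrome, had 107 CPM in control and 174 CPM in SRC2-floxed cells, a log2 ratio of 0.71, and Nedd4, a HECT ligase, had 5.63 and 11.1 CPM, a log2 ratio of 0.98. Traf6, a ligase that relays signals to NF-κB, had 387 and 265 CPM, a log2 ratio of -0.55, and Siah1a, a RING ligase, had 36.5 and 20.9 CPM, a log2 ratio of -0.81. Of 37 other deubiquitinases and related proteases, 13 were listed, 8 higher and 5 lower. Tnfaip3, which encodes A20, a brake on NF-κB signaling, had 433 and 293 CPM, a log2 ratio of -0.56, and Otud1 had one of -0.76. Senp5, a SUMO protease, had a log2 ratio of 0.44, and Senp8, a NEDD8 protease, had one of 1.04 at 4.09 and 8.39 CPM.

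**Figure D4:**
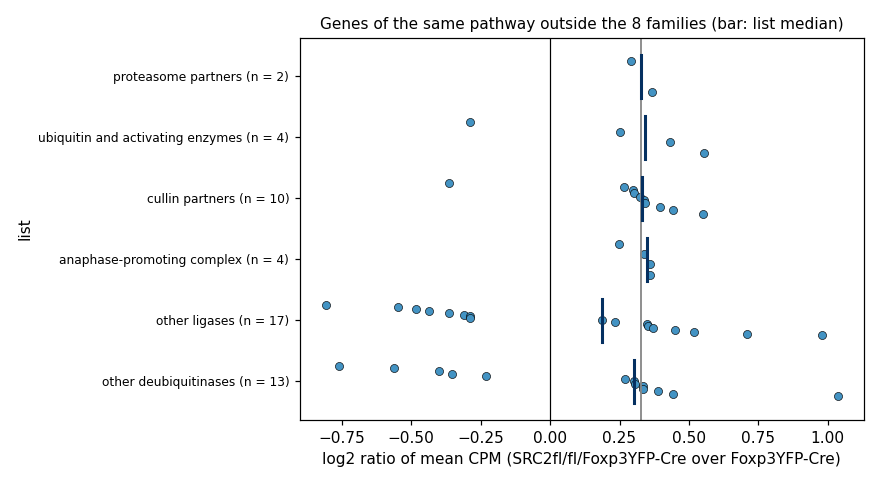
Log2 ratio of mean CPM (SRC2fl/fl/Foxp3YFP-Cre over Foxp3YFP-Cre) of the listed genes of 6 pathway lists outside the 8 families, with the list median as a dark bar and the median of all genes listed as a grey line. Partners of the proteasome and the anaphase-promoting complex lie on the higher side, as do 69.2% of all genes listed. Other ligases (9 higher, 8 lower) and other deubiquitinases (8 higher, 5 lower) lie on both.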

How the data were processed

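Reads of 6 libraries were aligned by the authors to GRCm38, quantified with the Partek E/M algorithm and normalized to CPM with 0.001 added to each value. Aligner, annotation, strand setting and versions: not given in the sources used here. As deposited, the table holds the authors' mean CPM of each genotype, as least-squares means. A deposited column of totals, treated as a score, equals 3 times the sum of both means (largest relative difference 8.8e-15), so it is no raw count. The authors' deposited ratio, signed fold change (a score by its range) and p-values hold their own comparison. They were not used, except to see that every p-value in the deposited table is below 0.05. No column of other samples was found.

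The log2 ratio of the means was computed with no offset in Python 3.11.15 with numpy 2.4.6 and pandas 2.3.3, and ratios and motif matches were checked on simulated data. No test was run, since there is 1 value per genotype and depth is unknown. Members and lists were chosen with earlier results of these data known. Named genes follow a rule: all Psm, Cul and Herc genes, the 4 highest and 4 lowest ratios of other families with at least 5 CPM in the higher genotype, members of the T cell and interferon lists, and the 2 highest and 2 lowest of each outside list. Members outside the rule were named after their values were seen. Exon overlaps of at least 100 bases, with GENCODE M21, involved 13 of the 52 members. CPM are relative, so a change in abundant genes shifts the others. Fold limits, offsets, a level minimum and centring were tried as alternatives. The values of 1 member and of 1 gene of an outside list are not reported here.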

Additional observations from a re-analysis of the deposited data

How the results depend on the processing

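Centring on the median of all genes listed, which removes a shift of 0.33, left 22 members higher and 30 lower, with 2 at least 1.4 times higher and 13 at least 1.4 times lower, beside 50%, 8.09% and 30.8% of all genes listed that were then higher, 1.4 times higher and 1.4 times lower. It turned the median of the members to -0.019 and the medians of Psm to -0.029, Fbx to -0.053, Rnf to -0.12 and Herc to -0.051, and moved those of Cul to 0.029, Trim to 0.13, Ube2 to -0.38 and Usp to -0.39. That median comes from genes selected for differing, so the shift of all expressed genes is unknown. With 5 CPM added to both means, 3 members were at least 1.4 times higher and 1 lower, beside 11.7% and 6.33% of all genes. When the higher mean had to exceed the lower by 25%, 23 members were past it on the higher side and 10 on the lower, beside 51.5% and 22.9% of all genes. At a fold of 2, 0 were past it on the higher side and 2 on the lower, Rnf125 and Rnf225, beside 5.24% and 3.14% of all genes. No other alternative moved a count of members or a family median by more than 1.5 times. Without a value per library, no replicate could be left out. No paired analysis was possible because the deposited means carry no replicate numbers.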

Other observations

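The modifier NEDD8 activates cullins, and some genes of its cycle outside the 8 families were listed. They were picked after their values were seen and from no complete list, so their directions are a description only. Uba3 of the activating enzyme had a log2 ratio of 0.43, Dcun1d2, a cofactor of NEDD8 transfer, had one of 0.51, and Cops6, Cops9 and Cops7a of the signalosome that removes NEDD8 had 0.30, 0.37 and 0.55. The NEDD8 protease gene Senp8 had a log2 ratio of 1.04 at 4.09 CPM in control and 8.39 CPM in SRC2-floxed cells. Cand2, which binds cullins that carry no NEDD8, was lower, with 9.18 and 6.73 CPM, a log2 ratio of -0.45. With centring on the median of the table, Cops6 was also lower.

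Of the 5 cell cycle genes listed outside the families, 3 were higher and 2 lower, beside 69.2% of all genes listed that were higher. The inhibitor genes Cdkn1a and Cdkn1b went opposite ways, with log2 ratios of 0.68 and -0.59. The cyclin gene Ccnd3 had a log2 ratio of 0.36, and Mki67, a proliferation marker, had one of -0.34. A difference in proliferation was not tested. By flow cytometry, at other times of culture, the paper found proliferation and survival comparable between the genotypes.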
